A study of Homo sapiens with 12 samples.

Results

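DEF6 and SWAP70 were chosen by symbol, as 2 of the 25369 genes listed in an RNA-seq experiment on arginine methylation of the transcription factor E2F1. DEF6 was picked because its RNA was low in cells with wild-type or KK E2F1 and not in cells with R109K E2F1, and SWAP70 was added as its close relative. All values of DEF6 across the lines are therefore a description with no test, whereas the values of SWAP70 played no part in the choice and were tested. Both genes passed the filter on low counts, which kept 16625 genes.

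The RNA came from U2OS Tet-On cells, a human osteosarcoma line that turns on a transfected gene when doxycycline is added. The pTRE line carried the empty vector, the WT line HA-tagged wild-type E2F1, the R109K line an E2F1 with lysine in place of the arginine methylated by PRMT1, and the KK line an E2F1 with lysines in place of the arginines methylated by PRMT5. All 4 lines, the empty vector line included, were grown in G418 and hygromycin B and received 1 ug/ml doxycycline for 24 h, and each gave 3 replicates of polyA RNA. Each line was made by stable transfection, so a difference between lines cannot be told apart from a difference between the transfectants themselves, and whether a line is 1 clone is not given in the sources used here.

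DEF6 and SWAP70 form a small family of guanine nucleotide exchange factors, proteins that switch small GTPases such as RAC1 and CDC42 into their active, GTP-bound form. Both have a pleckstrin homology domain that binds the lipid made by PI3K, and both act on the actin cytoskeleton. DEF6 is known mainly from T and B lymphocytes, where it works downstream of the antigen receptors, whereas SWAP70 is known from B cells and mast cells and is expressed more widely.

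DEF6 (ENSG00000023892.12_7) lies on chromosome 6 of GRCh37, the hg19 build, on the forward strand at chr6:35265595-35289548, and its canonical transcript has 11 exons and 2296 bases. SWAP70 (ENSG00000133789.15_8) lies on the forward strand of chromosome 11 at chr11:9685624-9774540, and its canonical transcript has 12 exons and 4884 bases. The annotated transcripts of the genes share 0 stretches of 30 bases, out of 5167 such stretches in DEF6 and 7232 in SWAP70. No other annotated gene overlaps DEF6. The 7SK pseudogene RN7SKP50 lies within SWAP70 on the same strand and is not among the genes used here.

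The 250 bases before the RefSeq start of each gene are shown because E2F1, the factor induced in these cells, binds promoters at letters of the form TTTCCCGC, TTTGGCGC, TTTCGCGC, or TTTGCCGC. The coordinates are those of GRCh38.p14, forward strand, and each stretch has 1 exact match in GRCh37, ending at the base before the start of the gene given above. Capitals mark any of the 4 forms with their leading T removed, searched on both strands, so that every 8-letter match also counts as a 7-letter match.
DEF6 promoter, chr6:35297568-35297817: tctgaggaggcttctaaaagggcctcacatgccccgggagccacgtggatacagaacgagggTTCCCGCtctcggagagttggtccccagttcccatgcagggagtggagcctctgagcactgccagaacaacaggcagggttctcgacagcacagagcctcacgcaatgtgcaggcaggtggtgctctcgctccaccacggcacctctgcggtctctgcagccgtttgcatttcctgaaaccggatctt
SWAP70 promoter, chr11:9663827-9664076: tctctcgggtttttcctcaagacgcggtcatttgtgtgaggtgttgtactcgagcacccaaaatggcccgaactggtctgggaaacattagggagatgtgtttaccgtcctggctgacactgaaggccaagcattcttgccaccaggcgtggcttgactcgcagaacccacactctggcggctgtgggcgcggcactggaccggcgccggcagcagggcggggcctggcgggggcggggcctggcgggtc

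The DEF6 stretch held a single 7-letter form, TTCCCGC, which began 188 bases before the start of the gene. The base in front of it was G, so it was no 8-letter match. The SWAP70 stretch held neither form. Over all 35116 promoter stretches of this length in the RefSeq table, 10.9% held a 7-letter form and 2.79% an 8-letter form. The stretches were GC-rich alike, at 60.0% GC with 12 CpG in DEF6 and 63.2% GC with 18 CpG in SWAP70, against a median of 58.0% over all promoters. A match of letters is a description of the sequence and not a binding site.

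Levels are given in CPM, the reads on a gene scaled to a library of 1000000 reads, with library sizes set by the trimmed mean of M values. E2F1 RNA, which includes the reads of the induced gene, was at 89.2, 82.9, and 101 CPM in the 3 pTRE replicates. It reached 2315, 1650, and 1469 CPM in WT, 1283, 1260, and 932 CPM in R109K, and 1360, 1478, and 1112 CPM in KK. Every E2F1 line thus stood far above the empty vector line, and R109K was below WT in all replicates, by 0.65 ± 0.18 (SE) on the log2 scale with an adjusted p of 0.0577 by edgeR. Reads on genes numbered between 11500537 and 31040903 per sample, and the lowest total was that of WT replicate 2, in which 58.7% of the reads fell outside genes against 23.6% to 29.6% in the other samples.

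DEF6 RNA was scarce in the empty vector line and scarcer still in the WT line. In pTRE cells it was at 3.76, 4.03, and 5.14 CPM (91, 106, and 140 reads), with a mean of 4.31 ± 0.73 (SD, n = 3). In WT cells it was at 0.285, 0.642, and 0.687 CPM (8, 8, and 19 reads), with a mean of 0.538 ± 0.220. The groups did not overlap, and WT stood 8.22-fold below pTRE, a log2 difference of -3.04 ± 0.32 (SE). This contrast was among those that led to the choice of DEF6, and in bulk RNA fewer cells with DEF6 RNA and less of it per cell cannot be told apart. Over all 16625 genes tested, 3.93% were called lower in WT than in pTRE, and 26.3% had every WT replicate below every pTRE replicate. A gene was called where the adjusted p was under 0.01 and the change over 2-fold.

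The KK line held more DEF6 RNA than WT on average but was likewise well below the empty vector. Its replicates had 1.07, 1.15, and 0.632 CPM (31, 24, and 16 reads), with a mean of 0.952 ± 0.280. KK stood 4.53-fold below pTRE, a log2 difference of -2.18 ± 0.28, and again no replicates overlapped. In this comparison, 3.9% of all genes were called lower and 24.5% had all replicates lower. KK and WT overlapped, since the lowest KK replicate, at 0.632 CPM, was below the 2 higher WT replicates. The log2 difference of KK from WT was 0.86 ± 0.35, and it was 0.50 ± 0.34 without WT replicate 1 and 1.20 without WT replicate 3.

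In R109K cells the DEF6 level overlapped that of the empty vector line. The replicates had 5.22, 5.34, and 4.87 CPM (161, 147, and 119 reads), with a mean of 5.14 ± 0.24, and they spread least of all the lines, with a coefficient of variation of 4.72% against 17.0% in pTRE, 29.5% in KK, and 40.9% in WT. The pTRE and R109K replicates overlapped, and the log2 difference was 0.25 ± 0.25 with a 95% interval of -0.24 to 0.75. Against this line, 2.56% of all genes were called lower than in pTRE and 4.64% higher.

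Set against each other, the E2F1 lines split into R109K on one side and WT and KK on the other. R109K held 9.80-fold more DEF6 RNA than WT, a log2 difference of 3.29 ± 0.31, and 5.40-fold more than KK, a log2 difference of 2.43 ± 0.28. In neither comparison did the replicates overlap. All replicates were higher for 13.1% of all genes in R109K against WT and for 9.56% in R109K against KK, while only 0.0962% and 0.0421% of all genes were called higher. The comparisons with pTRE share their control samples, and those between lines share the R109K samples.

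**Figure D1:**
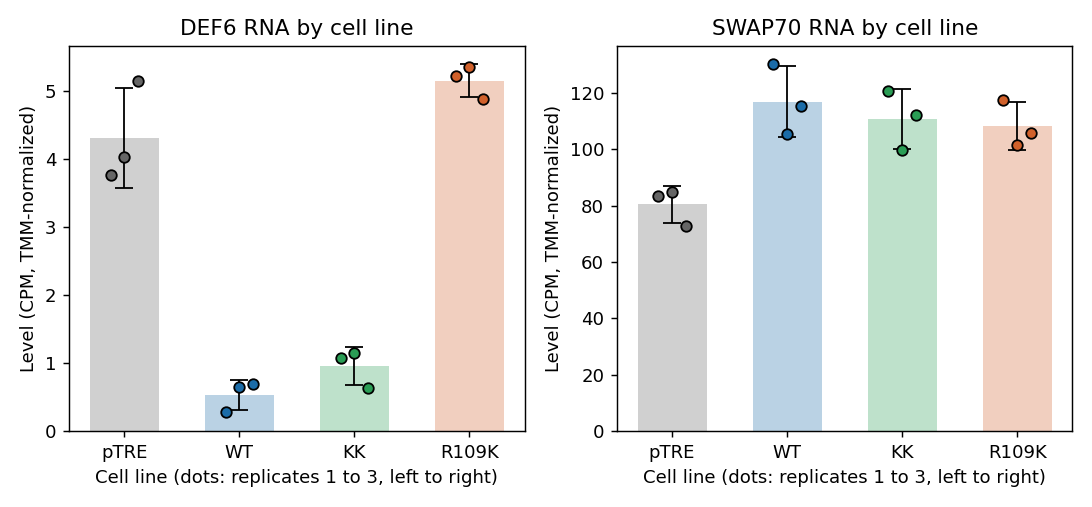
DEF6 (left) and SWAP70 (right) RNA in CPM by cell line, with bars for the mean of 3 replicates, whiskers for the SD, and dots for the single replicates. DEF6 lay between 3.76 and 5.34 CPM in every pTRE and R109K replicate and at or below 1.15 CPM in every WT and KK replicate, whereas SWAP70 lay between 72.9 and 84.8 CPM in pTRE and between 99.6 and 130 CPM in the E2F1 lines.

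Few reads stand behind the low values. The exact Poisson 95% interval of 8 reads, the count in WT replicates 1 and 2, runs from 3.45 to 15.8 reads, and that of the 16 reads of KK replicate 3 from 9.15 to 26.0 reads. The smallest count in pTRE, 91 reads, has an interval of 73.3 to 112 reads. These intervals cover counting error only. Without WT replicate 2, the library with many reads outside genes, WT stood below pTRE by a log2 difference of -3.14 and R109K above WT by 3.39.

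The mean E2F1 RNA level of the induced lines ran from 1158 CPM in R109K through 1316 in KK to 1811 in WT, and the mean DEF6 level was lower at each step in that order. The KK and R109K replicates overlapped in E2F1, at 1112 to 1478 CPM against 932 to 1283 CPM, with a log2 difference of R109K from KK of -0.18 ± 0.18 (SE), and they did not overlap in DEF6. Within WT, the replicate with the most E2F1 RNA, at 2315 CPM, had the least DEF6, at 0.285 CPM. The other lines did not share this order. In KK the replicate with the most E2F1 RNA, at 1478 CPM, had the most DEF6, at 1.15 CPM. In pTRE too, the replicate with the most E2F1 RNA had the most DEF6. In R109K the replicate with the least E2F1 RNA, at 932 CPM, had the least DEF6, at 4.87 CPM. The part of the E2F1 level in the DEF6 level was not tested.

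**Figure D2:**
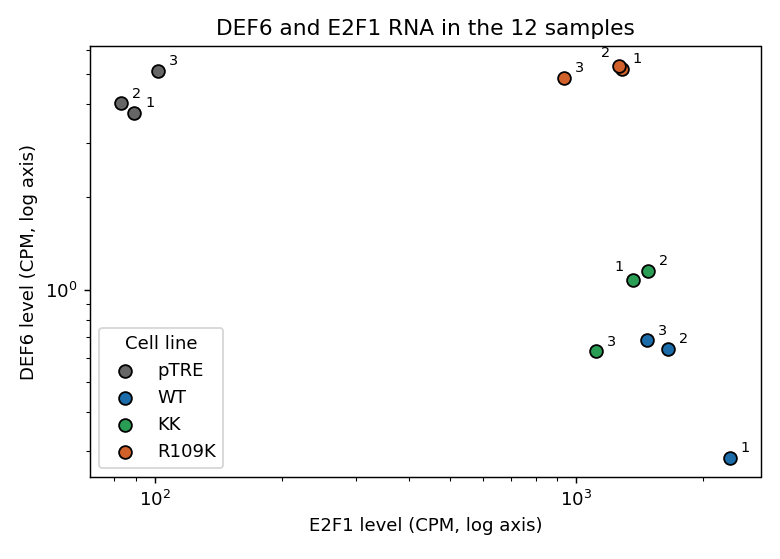
DEF6 level against E2F1 level in the 12 samples, both in CPM on log axes, with colors for the cell lines and replicate numbers beside the points. The pTRE samples sit at the left with high DEF6, the R109K samples at the right with DEF6 between 4.87 and 5.34 CPM, and the WT and KK samples at the right with DEF6 between 0.285 and 1.15 CPM.

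SWAP70 RNA was far more abundant than DEF6 and moderately higher in all E2F1 lines, R109K included. In pTRE cells it was at 83.6, 84.8, and 72.9 CPM (mean 80.5 ± 6.56). The WT replicates had 130, 105, and 115 CPM (116.9 ± 12.5), the R109K replicates 118, 101, and 106 CPM (108.3 ± 8.36), and the KK replicates 121, 99.6, and 112 CPM (110.8 ± 10.6). All 9 E2F1 samples lay above all 3 pTRE samples, while the ranges of the 3 E2F1 lines overlapped one another. Such a separation was common, with all replicates higher for 25.2% of genes in WT, 24.3% in R109K, and 24.9% in KK.

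The differences of SWAP70 from pTRE were small, and none reached 2-fold. By edgeR's quasi-likelihood test, WT was higher by 0.54 ± 0.12 (SE) on the log2 scale with an adjusted p of 0.00235, higher in 3 of 3 replicates. KK was higher by 0.46 ± 0.12 with an adjusted p of 0.00684, and R109K by 0.43 ± 0.12 with an adjusted p of 0.0143. An adjusted p under 0.01 with a higher level was reached by 14.8% of all genes in WT, 13.8% in KK, and 10% in R109K. Over the alternatives of the analysis, the adjusted p ranged from 8.36e-05 to 0.0160 in WT, from 0.000788 to 0.0385 in KK, and from 0.00294 to 0.0829 in R109K.

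Between the E2F1 lines SWAP70 differed by less than the spread of replicates. R109K differed from WT by -0.11 on the log2 scale, with a 95% interval of -0.35 to 0.12 and an adjusted p of 0.594 by edgeR. KK differed from WT by -0.08 (95% interval -0.31 to 0.16, adjusted p = 0.817) and R109K from KK by -0.03 (95% interval -0.27 to 0.20, adjusted p = 0.967). Each of these intervals leaves out a change of 2-fold. The order of the SWAP70 means, with WT highest and pTRE lowest, was therefore set only between pTRE and the rest, whereas for DEF6 the gap lay between pTRE and KK, with R109K and pTRE above it and KK and WT below.

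The ratio of the relatives differed between the lines in the same way. In pTRE there were 22.2, 21.1, and 14.2 SWAP70 reads for each DEF6 read, and in R109K 22.5, 19.0, and 21.7. In WT there were 457, 164, and 168, and in KK 113, 86.4, and 178. Read ratios depend on transcript length, so levels were also divided by the length of the canonical transcript. On that scale, in CPM per kilobase, DEF6 was at 1.88 ± 0.32, 0.234 ± 0.096, 0.415 ± 0.122, and 2.24 ± 0.11 in the pTRE, WT, KK, and R109K lines. SWAP70 was at 16.5 ± 1.34, 23.9 ± 2.56, 22.7 ± 2.18, and 22.2 ± 1.71 in the same order. SWAP70 was thus 8.78 times as abundant per kilobase as DEF6 in pTRE and 9.89 times in R109K, but 54.7 times in KK and 102 times in WT. The transcripts in use were not measured, and dividing by all annotated exon bases gave 13.2, 14.8, 82.0, and 153 times in the same lines.

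No gene beside DEF6 on chromosome 6 fell as far by its estimate in WT or KK, but DEF6 was picked for that fall. Over all genes, edgeR called 11.8% in WT, 10.9% in KK, and 7.19% in R109K against pTRE, and at most 0.343% between E2F1 lines. Of the 10 nearest listed genes, 5 on either side, edgeR called 0 in each of the 6 comparisons. DESeq2 called 0 of them as well. For 10 genes, a count of 0 is near the shares over all genes. At an unadjusted p under 0.05 there were 5 in WT, 2 in R109K, and 4 in KK against pTRE. The share of all genes under this unadjusted threshold is not given, so such counts, here and below, have no background beside them. ZNF76, a zinc finger gene that ends 1.8 kb before DEF6, differed from pTRE by 0.19 ± 0.13 on the log2 scale in WT, 0.20 ± 0.13 in R109K, and 0.30 ± 0.13 in KK. PPARD, a lipid-sensing nuclear receptor gene 20.8 kb after DEF6, differed by 0.01 ± 0.11, -0.07 ± 0.11, and 0.05 ± 0.11. FANCE, a Fanconi anemia gene, was lower by less than 2-fold in all 3 lines, by log2 differences of -0.47 in WT, -0.51 in R109K, and -0.43 in KK, with adjusted p-values of 0.00332, 0.00244, and 0.00586 by edgeR. ANKS1A was similar, at -0.51, -0.56, and -0.58, with adjusted p-values of 0.00353, 0.00254, and 0.00155 by edgeR.

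RPL10A, a ribosomal protein gene, was lower in all WT replicates than in all pTRE replicates, by a log2 difference of -0.70 ± 0.21 with an adjusted p of 0.0163 by edgeR, and was at -0.37 in KK and -0.27 in R109K. SCUBE3 was at 29.4 CPM in WT replicate 2 and at 5.34 and 5.35 CPM in the other WT replicates. TULP1 and TCP11 had at most 23 reads in any sample. Of the 10 nearest listed genes of SWAP70, 9 were tested and 0 were called by either tool. For 9 genes this too is near the 11.8%, 10.9%, and 7.19% of all genes called in WT, KK, and R109K against pTRE. In each of these comparisons, 2 of the 9 had an unadjusted p under 0.05. RNF141 was lower in WT by a log2 difference of -0.58 ± 0.15 with an adjusted p of 0.00665 by edgeR, and SBF2-AS1, the gene just after SWAP70, was lower in KK by -0.60 ± 0.16 with an adjusted p of 0.00685. SBF2-AS1 overlaps SBF2 on the opposite strand, and whether the counting used strand is not given in the sources used here.

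**Figure D3:**
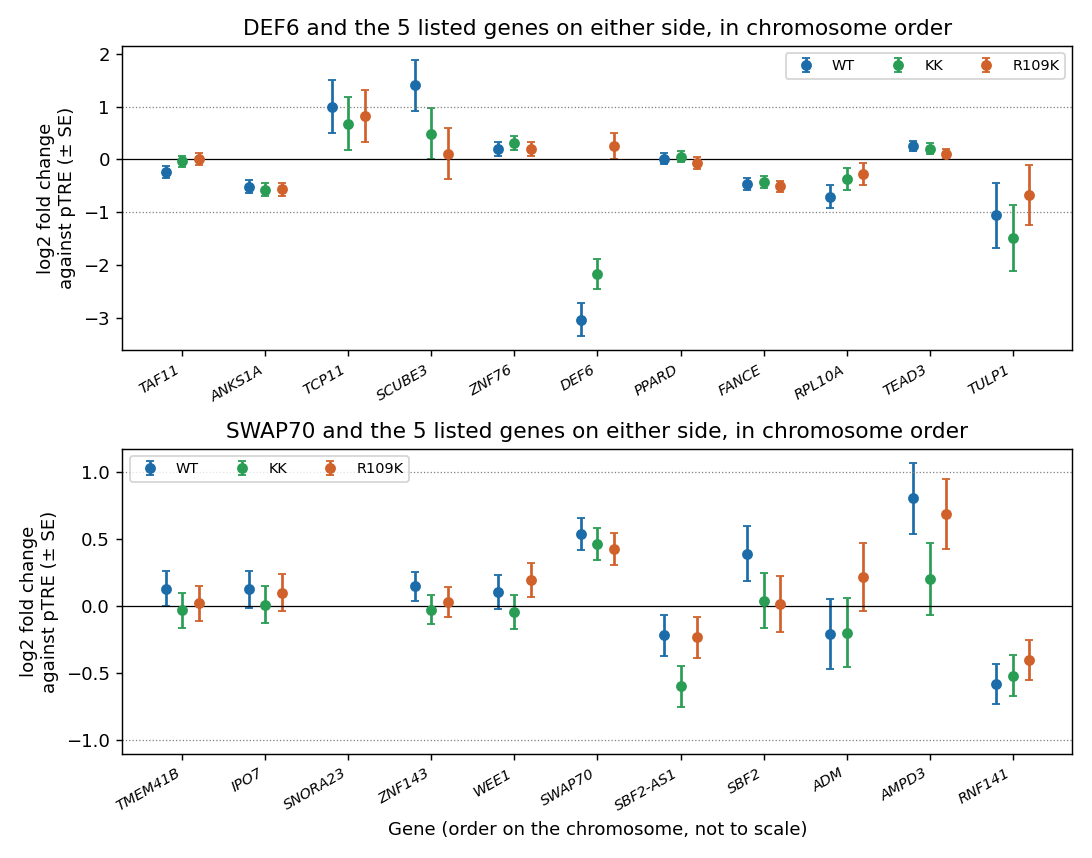
Log2 fold change against pTRE, with SE, for DEF6 (top) and SWAP70 (bottom) and the 5 listed genes on either side, in chromosome order and not to scale, with colors for WT, KK, and R109K and dotted lines at a 2-fold change. DEF6 is the lowest point in WT (-3.04) and KK (-2.18) and is at 0.25 in R109K. The next lowest in both lines is TULP1, a gene of few reads, at -1.06 in WT and -1.49 in KK. SNORA23, which was not tested, has no points.

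By calls, 175 genes, DEF6 included, had the pattern for which DEF6 was picked, and few of them were also called higher in R109K than in WT. Of 16625 genes, 472 were called lower in WT and KK, of which 297 were also called lower in R109K and 175 were not. Among the 175, 4 were called higher in R109K than in WT, namely DEF6, FZD2, LBH, and PDLIM1. Of these, 3 were called higher in R109K than in KK too, namely DEF6, LBH, and PDLIM1. Over 12 alternatives of the analysis the calls of R109K against WT held in 8 for PDLIM1, 7 for LBH, and 6 for FZD2, and that of LBH against KK in 5. These counts describe the pattern that chose DEF6 and are no test of it.

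The genes nearest to DEF6 were found from the log2 CPM in the 12 samples, centred on each gene's mean, by the root mean square difference from DEF6. Over 14827 genes with a mean of at least 20 reads, the median difference was 1.40. It was 0.68 for PDLIM1, an actin-associated PDZ and LIM domain protein, 0.73 for EDN2, the vasoconstrictor peptide endothelin 2, and 0.76 for LBH, a transcription cofactor of limb and heart development. FZD2, a Wnt receptor, was at 0.83 and CRYAB, a small heat shock protein, at 0.84.

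Of these 5 genes, LBH alone had R109K replicates that overlapped pTRE, as DEF6 did. PDLIM1 had 21.3, 22.5, and 29.5 CPM in pTRE and 13.8, 16.5, and 17.7 CPM in R109K, against 5.27, 5.22, and 7.12 CPM in WT and 4.50, 5.23, and 5.05 CPM in KK. The R109K replicates lay above all WT and KK replicates and below all pTRE replicates. LBH had an R109K mean at 93.2% of the pTRE mean, where DEF6 was at 119%. For PDLIM1 the R109K mean was at 65.5% of pTRE, for FZD2 at 64.7%, for CRYAB at 42.8%, and for EDN2 at 41.9%. In WT, DEF6 was at 12.5% of its pTRE mean, close to EDN2 at 10.4% and below LBH at 35.3%.

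**Figure D4:**
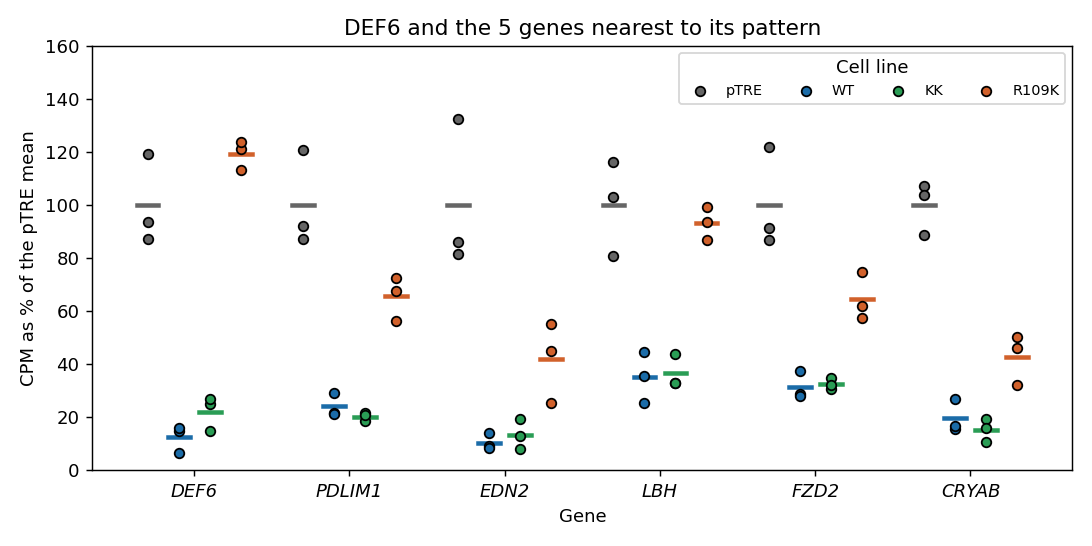
CPM as a percentage of the gene's pTRE mean for DEF6 and the 5 genes nearest to its pattern, with dots for replicates, short lines for means, and colors for the cell lines. DEF6 is at 12.5% in WT, 22.1% in KK, and 119% in R109K, and the R109K mean of the other genes lies between 41.9% and 93.2%.

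The wider network of small GTPases of the actin cytoskeleton was described from 193 listed genes, of which 182 were tested. Here most calls were higher rather than lower, as they were over all genes. DEF6 was picked for its fall in WT and KK, so its contrast with these rises is a description only. In WT, 22 genes rose and 6 fell, which is 15.4% of those tested, against 11.8% of all genes called (7.89% higher and 3.93% lower). The KK line had 20 rises and 5 falls, or 13.7%, against 10.9% of all genes (7.01% higher). The R109K line had 15 rises and 2 falls, or 9.34%, against 7.19% of all genes. The median log2 fold change of the network was 0.14 in WT, 0.04 in KK, and 0.06 in R109K, against 0.00, -0.01, and 0.00 over all genes.

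Among the GTPases themselves, 18 of 20 were tested, and the same 3 genes rose in every E2F1 line. Calls in either direction made up 27.8% of those tested in WT, 22.2% in KK, and 16.7% in R109K. Over all genes the shares were 11.8%, 10.9%, and 7.19%. RHOU, an atypical relative of CDC42, rose from 6.06 CPM in pTRE to 35.4 in WT, 30.7 in KK, and 20.2 in R109K, log2 fold changes of 2.55 ± 0.18, 2.34 ± 0.18, and 1.73 ± 0.18. RAC3, a close relative of RAC1, rose by 2.15, 2.49, and 2.43, and RHOBTB2, an atypical GTPase, by 2.03, 2.04, and 1.34, in the same order of lines. RHOB, a GTPase of endosomes, fell in WT (log2 fold change -1.06) and KK (-1.24) and was at -0.63 in R109K, and RHOBTB1 fell in WT (-1.06) and was at -0.92 in KK and -0.64 in R109K, short of 2-fold. The substrates of DEF6 and SWAP70 passed the thresholds in no line, with means of 501, 648, 687, and 661 CPM for RAC1 and 221, 190, 200, and 211 CPM for CDC42 in pTRE, WT, KK, and R109K.

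Of the other exchange factors, 65 of 70 were tested. There were 10 rises and 1 fall in WT, 9 and 2 in KK, and 7 and 2 in R109K, or 16.9%, 16.9%, and 13.8% of those tested against 11.8%, 10.9%, and 7.19% of all genes, whose calls also leaned to the higher side. PREX2, a Rac exchange factor bound by the PI3K lipid, rose from 0.987 CPM in pTRE to 12.1 in WT, 9.62 in KK, and 5.54 in R109K, log2 fold changes of 3.61 ± 0.27, 3.28 ± 0.27, and 2.48 ± 0.28. DOCK8, a CDC42 exchange factor best known from immune cells, rose by 2.07, 2.32, and 1.71, and ARHGEF28, an exchange factor for RHOA, by 2.00, 1.68, and 1.26. The genes that fell, named after their values were seen, were ARHGEF40 in all 3 lines (-1.14 in WT, -1.34 in KK, -1.22 in R109K), DOCK2 in KK (-1.04), and VAV1 in R109K (-1.24). VAV1 had means of 4.40, 3.88, 2.44, and 1.86 CPM in the pTRE, WT, KK, and R109K lines.

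The GTPase-activating proteins and dissociation inhibitors, which turn these GTPases off or hold them inactive, had 49 of 51 genes tested. There were 7 rises and 2 falls in WT, 6 rises and 2 falls in KK, and 4 rises in R109K. These made up 18.4%, 16.3%, and 8.16% of those tested. Over all genes the shares were 11.8%, 10.9%, and 7.19%, the last close to that of the list. ARHGAP20 had the largest rise, by 3.09 ± 0.19 in WT, 2.72 in KK, and 2.53 in R109K. ARHGDIG, a dissociation inhibitor, rose by 2.26 in WT and 2.16 in KK and was at 1.39 in R109K with an adjusted p of 0.0252 by edgeR. SRGAP1, a GTPase-activating protein of Slit and Robo signalling, rose by 1.76 in WT and 1.34 in KK and was at 0.90 in R109K.

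Of the effectors of RAC1 and CDC42 and the actin machinery, 50 of 52 were tested. In WT 2 rose and 1 fell, in KK 2 rose, and in R109K 1 rose, or 6%, 4%, and 2% of those tested, below the 11.8%, 10.9%, and 7.19% of all genes. IQGAP2, a scaffold that binds both GTPases, rose by 1.70 ± 0.24, 1.53 ± 0.24, and 1.27 ± 0.24 in WT, KK, and R109K. PARD6B, a CDC42-binding polarity protein, rose by 1.59 in WT and 1.30 in KK and was at 0.73 in R109K. CDC42EP5, a CDC42 effector, fell in WT by a log2 fold change of -1.26 ± 0.24 and was at -0.93 in KK and -0.27 in R109K.

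**Figure D5:**
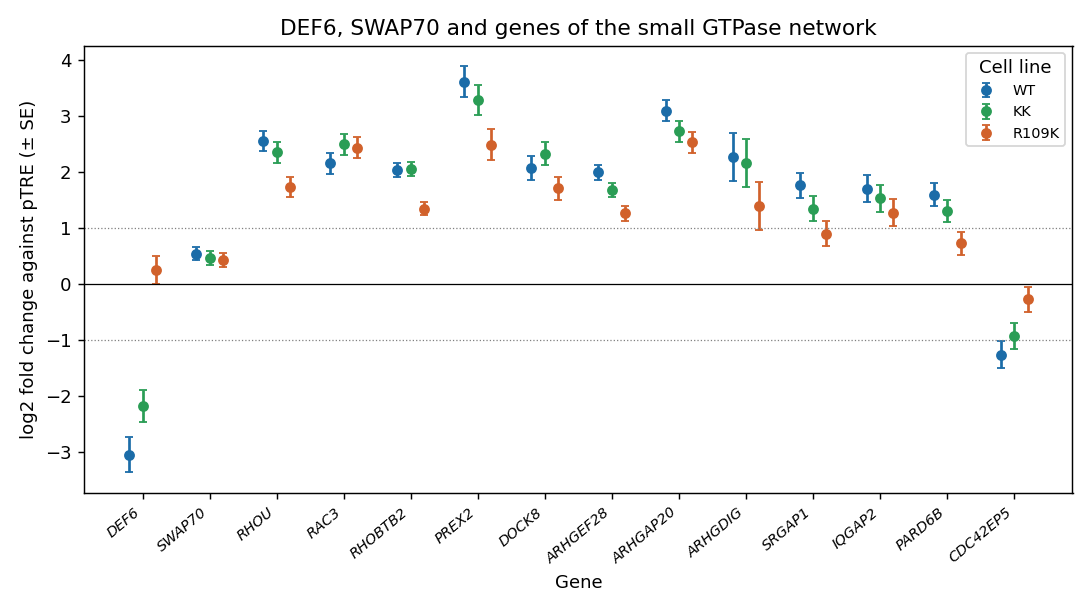
Log2 fold change against pTRE, with SE, of DEF6, SWAP70, and the 12 network genes with the largest called changes in their groups, with colors for WT, KK, and R109K and dotted lines at a 2-fold change. DEF6 lies at -3.04 in WT, -2.18 in KK, and 0.25 in R109K, SWAP70 between 0.43 and 0.54, and all network genes shown but CDC42EP5 above 0 in every line.

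In direct comparisons of the E2F1 lines, edgeR called 0 of the 182 network genes, against 0.343% of all genes in R109K against WT, 0.0902% in R109K against KK, and 0.00602% in KK against WT. At an unadjusted p under 0.05 there were 46, 30, and 17 network genes in these comparisons, with no share over all genes to set them against. DESeq2 called 3 in R109K against WT, all lower in R109K, namely DOCK4, PREX2, and VAV1, and 0 in the other comparisons. Without WT replicate 3, edgeR called 4, namely DOCK4, PARD6B, PREX2, and SRGAP1, again lower in R109K. DEF6 was higher in R109K than in WT, unlike all of these, but that belongs to the pattern for which DEF6 was picked.

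The lipid that recruits DEF6 and SWAP70 is made by PI3K and removed by phosphatases, and 9 of 10 genes listed for these enzymes were tested. PIK3R3, a regulatory subunit, rose in WT (1.04 ± 0.11) and R109K (1.15 ± 0.11) and was at 0.97 in KK. INPP5D, a phosphatase of blood cells, rose in R109K (1.55 ± 0.21) and was at 0.93 in WT and 1.00 in KK. In KK edgeR called 0 of the 9, with 5 at an unadjusted p under 0.05, and DESeq2 called 1. By edgeR the share called was 11.1% in WT and 22.2% in R109K. Over all genes it was 11.8% in WT, 10.9% in KK, and 7.19% in R109K.

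Proteins known to work with DEF6 or SWAP70 in lymphocytes ranged widely in level, and 5 of 8 were tested. Of these 5, edgeR called 1 in WT, 2 in KK, and 2 in R109K. That is 20%, 40%, and 40%, against 11.8%, 10.9%, and 7.19% of all genes. SYK, a kinase of B cell receptor signalling, rose from 0.297 ± 0.037 CPM in pTRE to 6.38 ± 0.78 in WT, 7.45 ± 0.47 in KK, and 5.82 ± 0.68 in R109K. LCK, a kinase of T cell receptor signalling, rose from 0.321 CPM to 1.67 in KK and 1.37 in R109K, and its 0.889 CPM in WT had an adjusted p of 0.0107 by edgeR. IRF4, IRF5, ZAP70, and CTLA4 had means of at most 1.19 CPM in every line. RAB11A, a GTPase of recycling endosomes, was at 118 CPM in pTRE and between 106 and 132 CPM in the other lines, and ITPR1, a calcium channel, was at 29.2 CPM in pTRE and between 16.8 and 19.9 CPM elsewhere.

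Markers of the cells themselves are given beside these levels, and their part in the DEF6 values was not tested. The 10 blood cell markers summed to 18.1 to 27.3 CPM over the pTRE replicates and to 17.7 to 20.7, 17.1 to 19.9, and 18.5 to 22.2 CPM over those of WT, KK, and R109K, most of it from ITGB2 and CORO1A. On average, PTPRC was at most at 0.460 CPM, CD79A at 0.481, MS4A1 at 0.257, and HCLS1 at 1.34. CD3E was at 0 in pTRE, WT, and KK and LCP2 in pTRE and R109K. Of the 7 tested, CD3D and CD14 rose and ITGB2 fell in WT (42.9%, against 11.8% of all genes), although CD14 was called in 3 of 11 alternatives and CD3D in 9 of 12. ITGB2 alone was called in KK, where it fell (14.3%, against 10.9% of all genes). In R109K edgeR and DESeq2 called 0 of the 7, against 7.19% of all genes by edgeR, with 4 at an unadjusted p under 0.05. For 7 genes, the KK and R109K counts are near the shares over all genes. The 9 bone lineage markers summed to 4695 to 5895 CPM in pTRE. Their sum was lower in every E2F1 line, at 1026 to 1397 CPM in WT, 1268 to 1505 in KK, and 1595 to 1745 in R109K. Of the 5 tested, edgeR called 60% in WT, 60% in KK, and 40% in R109K, all lower. Over all genes 3.93%, 3.9%, and 2.56% were called lower. COL1A1, the collagen chain that made up most of the sum in pTRE, fell by 2.65 ± 0.15 on the log2 scale in WT, by 2.43 ± 0.15 in KK, and by 2.08 ± 0.14 in R109K. SPARC was above COL1A1 in WT (626 against 567 CPM) and KK (743 against 662 CPM) and just below it in R109K (822 against 842 CPM). SPP1 fell in all 3 lines and SPARC in WT and KK, while SP7 was at 0 in pTRE and R109K, IBSP at 0 in WT and R109K, and COL1A2 and BGLAP at most at 0.290 CPM on average. RUNX2 was lower by less than 2-fold, at -0.60 in WT, -0.67 in KK, and -0.90 in R109K. ALPL was not lower, at 0.06, 0.65, and 0.18 in the same order.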

How the data were processed

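The authors deposited whole-number counts of reads per gene for each of the 12 samples. Per the labels and the methods, reads from a directional polyA kit were trimmed with Trim Galore 0.4.3 and aligned to hg19 with STAR 2.5.1, and the submitters' processing notes also name DESeq2 1.16.1. The gene annotation and the strand setting of the counting are not given in the sources used here. Lines for reads outside genes were left out of library sizes.

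The tests used R 4.3.3 and edgeR 4.0.16 with filterByExpr, TMM scaling, and 1 quasi-likelihood fit of a mean per line to all 12 samples (common dispersion 0.0239). P-values were adjusted over 16625 genes by the Benjamini-Hochberg method, and the thresholds follow the study's methods. CPM use TMM library sizes, and log2 CPM a prior count of 2. The model was tested on simulated data first. Gene positions are from GENCODE v44lift37, to which 22988 of 25369 symbols were matched, and promoters from RefSeq, in which both genes were found. P-values measure the spread between these replicates.

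DEF6, SWAP70, and the gene lists were chosen with earlier results of these data known. A few genes of the lists are not reported here. Named genes are DEF6, SWAP70, E2F1, the 5 listed genes on each side of both, the 5 genes nearest to DEF6, all immune partners and markers, and in each list up to 3 called genes with the largest change and any called between lines. DESeq2 1.42.0, RLE scaling, no filter, a minimum of 10 reads in every sample, 6-sample fits, a replicate block, and leaving out each replicate were the alternatives.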

Additional observations from a re-analysis of the deposited data

Results flagged for a closer look

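The DEF6 level differed between the E2F1 lines, in that R109K lay above WT by a log2 difference of 3.29 and above KK by 2.43, with no overlap of replicates in either comparison. Both stand out because the direct comparison of lines gave a difference where few genes had one, and both belong to the pattern for which DEF6 was picked, so no test is given.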

How the results depend on the processing

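The log2 differences of DEF6 kept their direction under all alternatives that gave a value. Leaving out 1 replicate at a time gave -3.39 to -2.68 for WT and -2.32 to -1.96 for KK against pTRE, 0.16 to 0.40 for R109K against pTRE, 0.50 to 1.20 for KK against WT, and 2.93 to 3.63 and 2.20 to 2.58 for R109K against WT and KK. A minimum of 10 reads in every sample removed DEF6, which had 8 reads in 2 WT replicates. SWAP70 was called in no comparison under any alternative. Its small differences between lines turned direction when 1 replicate was left out, ranging from -0.15 to 0.01 for KK against WT (0.013 without WT replicate 1) and from -0.10 to 0.03 for R109K against KK (0.012 without R109K replicate 2, 0.025 without KK replicate 1). Of the small GTPase network, 0 genes were called in R109K against WT, but 3 by DESeq2, 2 with no filter, and 0 to 4 when 1 replicate was left out (4 without WT replicate 3), and the cause was not tested. Over all genes, this comparison gave 57 calls and 0 to 157 under the alternatives, and R109K against KK gave 15 and 1 to 64.

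Replicates with the same number in different lines had deviations with a mean correlation of 0.044 over 18 pairs, from -0.29 to 0.47, against -0.023 over 36 pairs with different numbers. With 3 replicates per line, these values cannot settle whether the numbers pair the samples. SWAP70 was highest in replicate 1 and lowest in replicate 2 in all 3 E2F1 lines, but not in pTRE. With a replicate block, DEF6 differed from pTRE by -3.03 in WT, 0.26 in R109K, and -2.17 in KK, and SWAP70 by 0.53, 0.42, and 0.46 with adjusted p-values of 0.00166, 0.00890, and 0.00438 by edgeR. No call of SWAP70 changed, although its adjusted p in R109K was 0.0143 by edgeR without the block. At 8 to 31 DEF6 reads per WT or KK sample, the depth limits the comparison of KK with WT.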
